A study of Mus musculus with 6 samples.

Results

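The genes described here are 9 granulocyte genes: Ngp, Camp, Ltf, Lcn2, Chil3, S100a9, Ly6g, Srgn and Lrg1. They were chosen by name, with their values known, from the 1285 genes that the authors' deposited table lists at an unadjusted p below 0.05 for Snai2-/- against control cells, and every one of the 9 has a row there. Their means, ratios and p-values therefore describe them and test nothing. RNA-seq was run on mesenchymal stem and progenitor cells (MSPCs) from mouse bone marrow, stromal cells that support blood stem cells. Each library came from about 2000 cells sorted by flow cytometry at 8 weeks of age. Sorted cells lacked CD45 (leukocytes), Ter119 (erythroid cells) and CD31 (endothelium) and carried Nes-GFP, a nestin-driven green reporter present in both groups. The 3 control libraries and the 3 Snai2-/- libraries came from littermates. Snai2 encodes Slug, a zinc-finger repressor of the Snail family. The sample labels give the genotype of the controls only as control, and the headers of the deposited comparison call that group wildtype. No label says whether each library is from its own animal, whether animals were pooled, or in which cells of the animal Snai2 is missing.

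Neutrophils fill their granules in stages while they mature in the marrow. Primary (azurophil) granules with myeloperoxidase and elastase are made first, in promyelocytes. Secondary (specific) granules with lactoferrin, the cathelicidin precursor and lipocalin 2 follow in myelocytes, under the transcription factor C/EBP epsilon, and tertiary granules with gelatinase come last. A few of these proteins are not restricted to granulocytes. Lipocalin 2 and leucine-rich alpha-2-glycoprotein are acute-phase proteins that other cells secrete when stimulated, and serglycin is a granule proteoglycan of most blood cells that endothelial and stromal cells can also make.

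All 9 genes had a higher mean in Snai2-/- cells, and C/EBP factors are known regulators of granule genes. For that reason the stretches upstream of the start were printed for 4 genes that differ in group ratio. They are RefSeq sequence of build GRCm38.p6, 5′ to 3′ on the strand of the gene, and end before the first start that RefSeq or GENCODE annotates. Capitals mark matches on either strand to TTNNGNAA, a loose C/EBP-type word, and to CAGGTG, read on the other strand as CACCTG, the E-box that Snail-family repressors bind. All 4 printed genes are among the 7 of 9 members with TTNNGNAA, so no member without it is shown.
Ngp, chr9:110419558-110419746, plus strand: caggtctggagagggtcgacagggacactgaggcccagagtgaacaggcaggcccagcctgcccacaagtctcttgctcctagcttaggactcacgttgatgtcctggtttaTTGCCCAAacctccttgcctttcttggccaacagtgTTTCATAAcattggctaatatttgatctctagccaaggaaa
Ltf, chr9:111019042-111019270, plus strand: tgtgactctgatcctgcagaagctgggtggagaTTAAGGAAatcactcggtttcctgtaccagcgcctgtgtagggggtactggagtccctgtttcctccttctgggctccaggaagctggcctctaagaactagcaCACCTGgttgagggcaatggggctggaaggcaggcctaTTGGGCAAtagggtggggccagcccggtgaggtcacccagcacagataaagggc
Chil3, chr3:106167565-106167814, minus strand: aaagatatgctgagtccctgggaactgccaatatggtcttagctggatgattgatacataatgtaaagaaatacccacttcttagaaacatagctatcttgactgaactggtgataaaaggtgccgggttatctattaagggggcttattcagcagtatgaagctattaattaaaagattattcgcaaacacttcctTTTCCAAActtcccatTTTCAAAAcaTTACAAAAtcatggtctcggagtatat
S100a9, chr3:90695722-90695971, minus strand: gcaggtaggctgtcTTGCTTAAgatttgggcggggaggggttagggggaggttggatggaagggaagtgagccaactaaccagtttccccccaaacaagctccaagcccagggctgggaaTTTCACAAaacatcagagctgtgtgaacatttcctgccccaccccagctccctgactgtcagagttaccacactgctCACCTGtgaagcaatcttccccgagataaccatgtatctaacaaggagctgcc

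The whole windows run from 250 bases before to 50 after the start and were found for all 9 genes. TTNNGNAA occurred in the windows of 7 of the 9 genes (Ngp, Ltf, Lcn2, Chil3, S100a9, Ly6g and Srgn) and in those of 44.1% of 27025 genes in the same RefSeq table. Camp and Lrg1 had none in this window. Counted from the start, with -1 as the base before it, the E-box began at -113 in Ltf, at -53 in S100a9 and at -245 in Lrg1, so 3 of the 9 genes held CAGGTG against 22.6% of all genes. An NF-kB-type word, GGGA and CC with 4 free bases between them, was found for 3 of 9 (Camp, Chil3 and Ly6g) against 22.9% of all genes, and GAGGAA, the core of PU.1 and other ETS sites, for 3 of 9 (Ltf, Lcn2 and Ly6g) against 31.3%. TTCNNNGAA, a STAT-type word, was found for 1 of 9, Chil3, against 9.55%. Both strands were searched for every word, and in Ly6g the NF-kB-type match overlaps a GAGGAA match. Within the 200 bases before the start the NF-kB-type word was left in 1 of 9 genes against 16.8% of all. A gene with several windows counted once if any held the word. These matches describe the sequence and show no binding.

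All 9 genes had a higher mean in Snai2-/- cells, and the authors' deposited table gave ratios from 2.95 to 10.4, with a median log2 ratio of 2.52. A p below 0.05 with a higher mean was reached by 3.77% of the 16718 genes tested, and in either direction by 7.69%. Since the genes were taken from those listed, their 9 of 9 says nothing against that background. By the authors' deposited table no member passed a false discovery rate (FDR) of 0.05, nor did any other gene (0% of those tested), and the FDR of the members ran from 0.271 to 0.649. In bulk RNA, more cells of a type and more RNA per cell cannot be told apart.

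**Figure D1:**
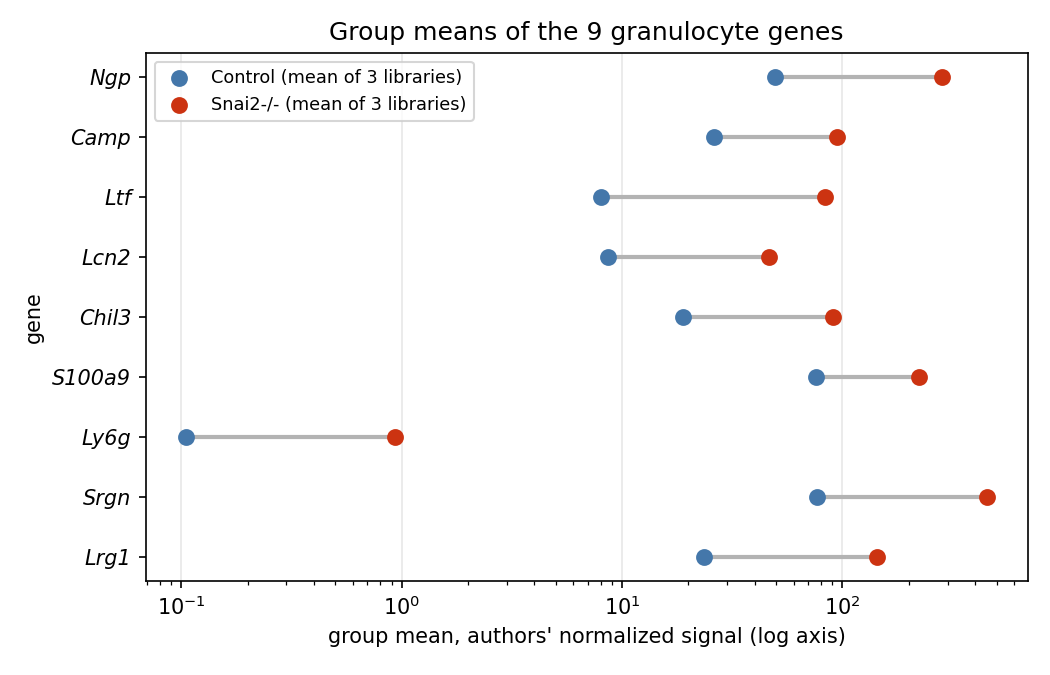
Group means of the 9 genes in control (blue) and Snai2-/- cells (red) on the authors' normalized scale, log axis, 1 value per group with no error available. Every red point lies to the right of its blue point, and Ly6g lies below 1 in both groups.

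Among the proteins of secondary granules, Ngp, the neutrophilic granule protein related to cathelicidins, averaged 49.2 in control and 281.5 in Snai2-/- libraries by the authors' deposited table. The authors' deposited table gives a ratio of 5.72, an unadjusted p of 0.024 and an FDR of 0.562 for it. Camp, which encodes the precursor of the antimicrobial peptide CRAMP, averaged 26.0 and 94.9 by the authors' deposited table (ratio 3.64, p = 0.047). Ltf encodes lactoferrin, an iron-binding protein of secondary granules and secretions. Its means of 8.03 and 83.3 make the highest ratio of the 9, 10.4, which the authors' deposited table gives with p = 0.0184. Lcn2, the siderophore-binding lipocalin 2, averaged 8.60 and 46.3 by the authors' deposited table (ratio 5.38, p = 0.0241). Chil3 encodes the chitinase-like protein Ym1 of neutrophils and some macrophages. For it the authors' deposited table holds means of 18.9 and 90.3 (ratio 4.77, p = 0.027). All 5 of these members, chosen with their values known, thus differed by more than a factor of 3.

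The members also include a cytosolic and a surface marker of neutrophils. S100a9, the calcium-binding subunit of calprotectin, averaged 75.5 in control and 222.9 in Snai2-/- libraries by the authors' deposited table. Its ratio of 2.95 was the lowest of the 9, and its p of 0.0487 came closest to the largest p that the authors' deposited table lists, 0.0499. Ly6g, a surface antigen used to identify mouse neutrophils, averaged 0.105 and 0.931 by the authors' deposited table (ratio 8.87, p = 0.0373). Summed over the 3 libraries of a group that is 0.315 against 2.79 normalized units, so the Ly6g ratio rests on a very low signal.

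Srgn and Lrg1 are less specific to granulocytes. Srgn, the serglycin core protein that packs proteases and other cargo into secretory granules, averaged 76.8 in control and 454.7 in Snai2-/- libraries by the authors' deposited table. Its ratio was 5.92, and its p of 0.000745 ranked 46 of the 1285 that the authors' deposited table lists. It was the 1 member with a p below 0.01, a level reached with a higher mean by 1.21% of the genes tested. Lrg1, the secreted leucine-rich alpha-2-glycoprotein stored in neutrophil granules and made in the acute phase, averaged 23.6 and 143.0 by the authors' deposited table (ratio 6.07, p = 0.0335). The ratios of Srgn, Lrg1 and Lcn2 lay between 5.38 and 6.07, within the range of 2.95 to 10.4 of the other 6. Some of the other 6, such as Chil3 and Ltf, are not confined to granulocytes either. The split into 3 and 6 genes therefore does not separate granulocyte genes from others. The median log2 ratio was 2.57 for these 3 genes and 2.39 for the other 6. Whether these transcripts came from granulocytes carried through the sort or from stromal cells was not tested.

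The ratios of the members spread widely. The largest ratio was 3.51 times the smallest, with no error available for either. Relative to Ngp in the same group, Camp went from 52.9% in control to 33.7% in Snai2-/- cells and S100a9 from 153.4% to 79.2%, while Ltf went from 16.3% to 29.6%. Lcn2 stayed near 16.4% to 17.5% of Ngp, Lrg1 near 47.9% to 50.8% and Srgn near 156.1% to 161.5%. Since the authors' scale may depend on transcript length, these percentages do not compare the levels of different genes. Such percentages can be set side by side between groups. The same limit holds where totals, sums or a minimum mean are used over different genes.

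Ratios in a table limited to p below 0.05 depend on the level, because a low gene needs a large ratio to be listed. For each member, the listed genes with a higher mean in Snai2-/- cells and a total within a factor of 2 of its own were taken for orientation. For the 8 members other than Ly6g, whose totals ran from 164.6 to 1594 normalized units, these were 38 to 222 genes with median log2 ratios from 0.59 to 0.81. All 8 members had a larger log2 ratio than that median. Since the members were chosen with their values known, this describes them and tests nothing. The spread between libraries also bears on the ratio needed for listing and is not known here. For Ly6g the 39 such genes had a median of 3.20 against its own 3.15. Among all 631 listed genes with a higher mean, 6.66% had a larger ratio than Ltf, 16.6% a larger one than Ngp and 37.2% a larger one than S100a9.

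**Figure D2:**
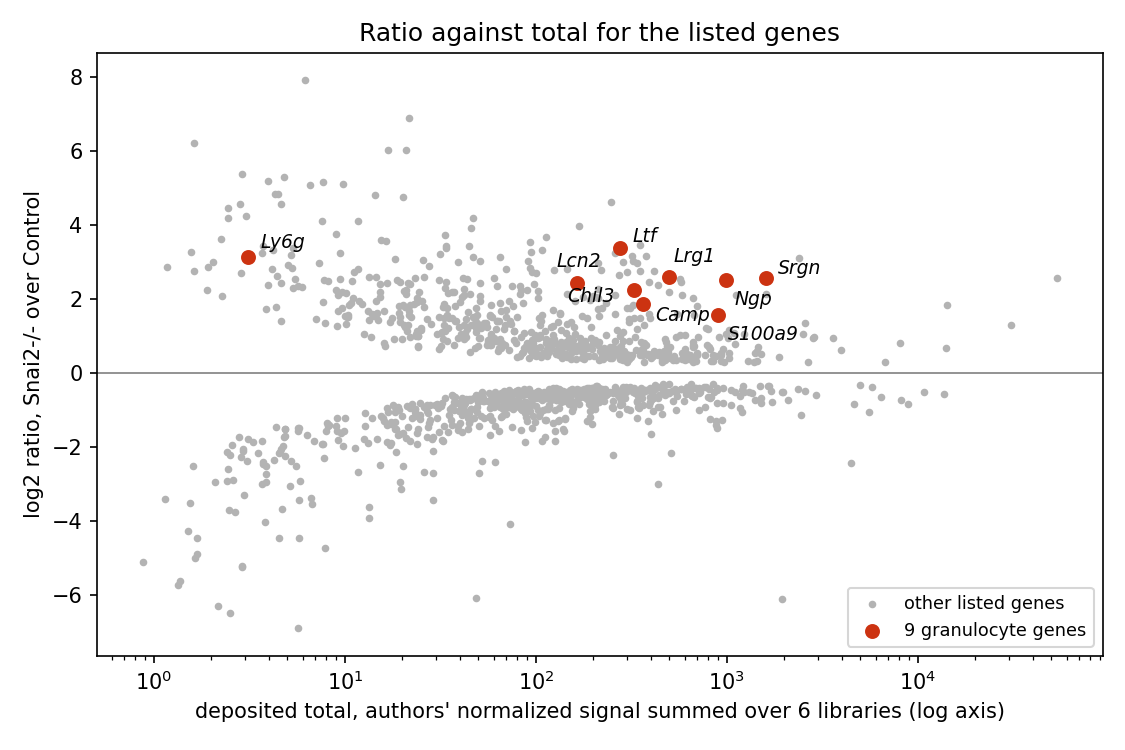
Log2 ratio of Snai2-/- over control against the deposited total for the listed genes (1 point per gene, log x axis, 7 genes with a group at 0.0001 left out), with the 9 genes in red. Ly6g lies among the low genes with large ratios, and the other 8 lie above most genes of like total. The 9 genes were chosen with these values known.

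Beside the members, granulocyte genes were listed at about the rate of all genes, but setting listed genes aside lowers that rate. The 6 lists of primary granule, secondary and tertiary granule, cytosolic, surface, transcription factor and phagocyte signalling genes hold 92 genes beside the members. The authors' deposited table lists 7 of these (7.61%, against 7.69% of all genes tested), 5 higher and 2 lower without Snai2. The 5 higher were 5.43% of the 92, against a background of 3.77%. With the members kept, 6 of 20 secondary and tertiary granule genes (30%) and 4 of 15 cytosolic genes (26.7%) were listed, all higher. The shares listed were 8.33% for primary granule, 7.69% for surface, 5.88% for phagocyte signalling and 0% for transcription factor genes. The 1 primary granule gene was lower and the 1 phagocyte signalling gene higher. The 2 surface genes were the member Ly6g, higher, and Tlr2, lower. Without the members, 1 of 15 secondary and tertiary granule genes and 3 of 14 cytosolic genes were listed, all higher. Taking the members from the listed genes raises the shares with them and lowers those without them. For a gene that is not listed, a p of at least 0.05 and no test at all cannot be told apart here, so the number of the 92 that were tested is unknown. Among the 85 not listed were Mpo, Elane, Prtn3 and Ctsg of primary granules, Mmp8 and Mmp9 of later granules, and S100a8, the partner of S100a9 in calprotectin. Also not listed were the receptors Csf3r, Cxcr2 and Fpr1, the integrin gene Itgam, and Cebpe and Gfi1, transcription factors of granulocyte maturation.

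The listed genes among the 92 were mostly low. Cd177, a surface and granule antigen of neutrophils, averaged 2.65 in control and 14.2 in Snai2-/- libraries by the authors' deposited table (ratio 5.38, p = 0.0486). Padi4, which encodes the histone-citrullinating enzyme of neutrophils, averaged 0.077 and 0.563 by the authors' deposited table. The protease gene Asprv1 stands in the authors' deposited table at 0.0001 for control and 0.339 for Snai2-/- libraries. Its deposited ratio rests on that 0.0001 and is not quoted here. G0s2, an inhibitor of fat breakdown that adipose-lineage cells also make, averaged 123.1 and 169.9 by the authors' deposited table. The 2 lower genes, also not specific to granulocytes, were Gusb, a lysosomal enzyme, and Tlr2, a receptor for bacterial lipoproteins. By the authors' deposited table Gusb averaged 91.0 and 74.8 and Tlr2 29.6 and 19.3.

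**Figure D3:**
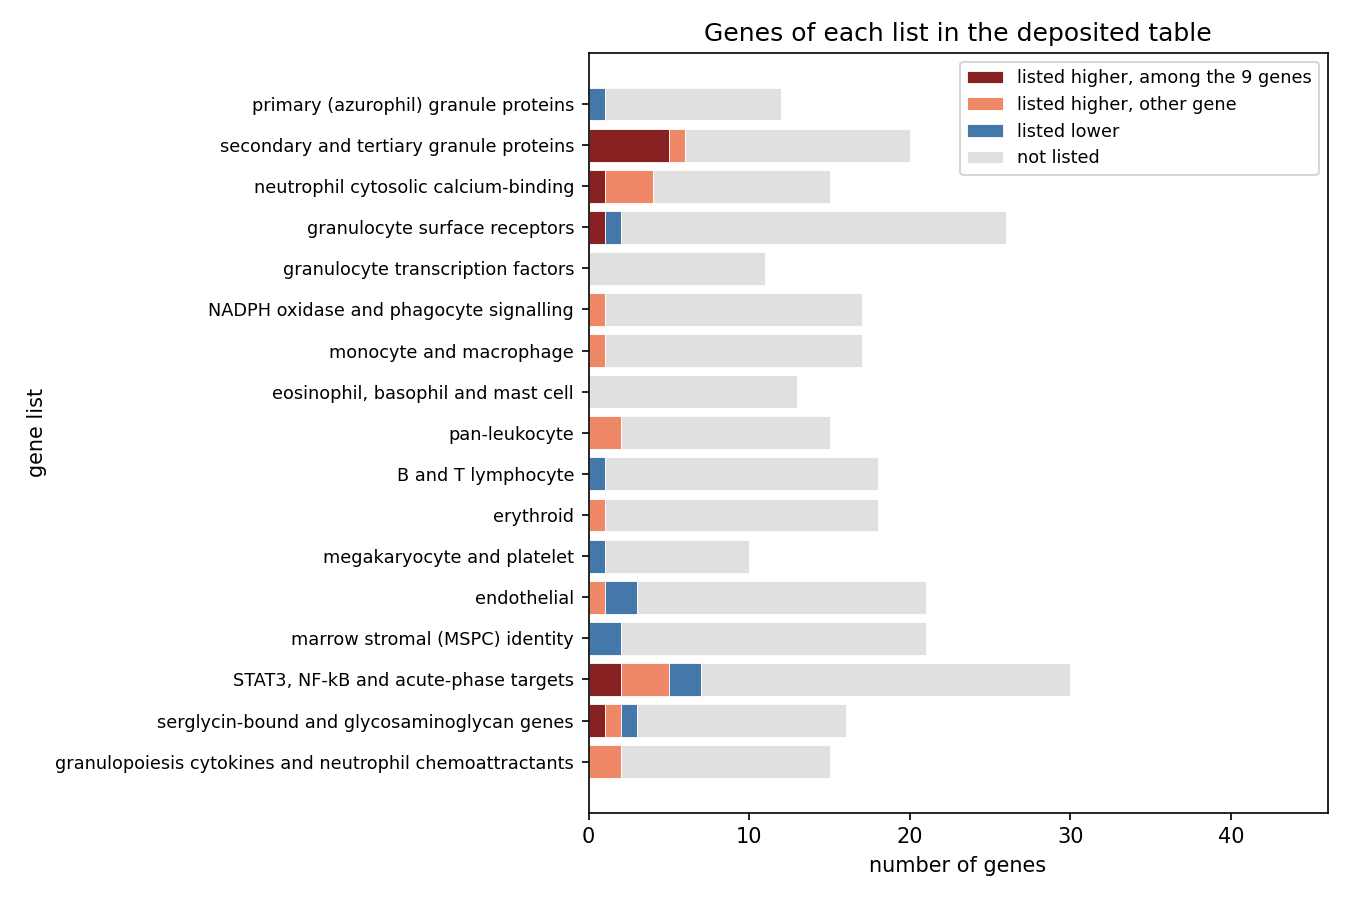
Number of genes of each list (horizontal bars) that were listed higher in Snai2-/- cells (dark red for the 9 genes, orange for others), listed lower (blue) or not listed (grey). Secondary and tertiary granule genes hold 6 listed genes of 20, of which 5 are among the 9, and most genes of every list are grey.

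Markers of other blood cells that the sort selects against were listed in both directions. The monocyte, eosinophil to mast cell, pan-leukocyte, lymphocyte, erythroid and megakaryocyte lists together hold 91 genes other than the members. The authors' deposited table lists 6 of these (6.59%, against 7.69% of all genes tested), 4 higher and 2 lower. Ptprc, which encodes CD45, was not listed, nor was Pecam1 (CD31). The endothelial list of 21 had 3 genes listed (14.3%), 1 higher and 2 lower. Adgre1, the macrophage antigen F4/80, averaged 0.056 in control and 0.695 in Snai2-/- libraries by the authors' deposited table. Cd48, found on most leukocytes, averaged 1.21 and 3.64, and the erythroid carbonic anhydrase gene Car1 45.7 and 137.1, by the authors' deposited table. Cd44, an adhesion receptor that stromal cells make too, averaged 34.8 and 55.9 by the authors' deposited table. The lower genes in the authors' deposited table were Ebf1 (362.5 and 210.3), a factor of B cells and of marrow stroma, and Vwf (23.0 and 1.38), a platelet and endothelial gene. The summed mean of the 6 listed genes was 467.3 in control and 409.0 in Snai2-/- cells. It is not set beside a sum of the 9 granulocyte genes, which were chosen with their values known. Ebf1, also a stromal gene, sets the direction of the sum over the 6 genes. The other 5 genes together went from 104.8 to 198.7, 1.90 times higher in Snai2-/- cells. Most of that rise lies in Car1 (45.7 and 137.1), so the sum does not describe the 5 genes as a set. The part of other blood cells in the values of the 9 genes was not tested, and the levels of genes that are not listed are not known here.

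Of 21 marrow stromal identity genes the authors' deposited table lists 2 (9.52%, against 7.69% of all genes tested). Both were lower, Ebf1 and Angpt1, a vascular ligand of the niche (171.3 and 126.1). The levels of Nes, Lepr and Cxcl12, defining genes of these cells, could not be checked because they were not listed. Snai2 itself averaged 636.0 in control and 9.20 in Snai2-/- libraries by the authors' deposited table.

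Lcn2 and Lrg1 also belong to a list of 30 STAT3, NF-kB and acute-phase targets that stromal cells can express. Of the 28 others 5 were listed (17.9%, against 7.69% of all genes tested), 3 higher and 2 lower. The 3 higher were 10.7% of the 28, against a background of 3.77%. The list was written with earlier results of these data known, so these shares test nothing. Orm1, an acute-phase glycoprotein, averaged 3.40 and 7.23, and the cytokine gene Il6, an inducer of acute-phase genes, 3.50 and 13.5 by the authors' deposited table. The neutrophil chemokine gene Cxcl5 averaged 10.8 and 22.1 by the authors' deposited table. The lower genes in the authors' deposited table were complement C3 (1254 and 232.1) and the monocyte chemokine gene Ccl2 (97.6 and 52.1). Saa3, Hp, Socs3, Cebpd and Stat3 were not listed. Of 15 granulopoiesis cytokines and neutrophil attractants, Il6 and Cxcl5 were the 2 listed (13.3%), both higher, against a background of 3.77%. Csf3, the main growth factor of neutrophils, was not listed.

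Serglycin carries glycosaminoglycan chains that bind granule proteases. Of 15 other serglycin-bound and glycosaminoglycan genes 2 were listed, Cd44, higher as given above, and Chst15, lower. Cd44 is an adhesion receptor and not granule cargo. With Srgn, which was taken from the listed genes, 3 of 16 were listed (18.8%, against 7.69% of all genes tested). That choice raises the share, so it tests nothing. Without Srgn 1 of the 15 was higher and 1 lower. Chst15, a sulfotransferase of chondroitin sulfate chains, averaged 190.3 in control and 80.4 in Snai2-/- libraries by the authors' deposited table (ratio 0.422, p = 0.000598).

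Camp (chr9:109847379-109849617, minus strand), Ngp (chr9:110419747-110423012, plus strand) and Ltf (chr9:111019271-111042767, plus strand) lie within 1.20 Mb of chromosome 9 in GENCODE M21 on GRCm38. Camp and Ngp are 570.1 kb apart and Ngp and Ltf 596.3 kb. This region was looked at after its values were seen. It holds 31 protein-coding genes. Of the 28 that are not members 2 were listed (7.14%, against 7.69% of all genes tested). Both were higher, against a background of 3.77%. They were Nbeal2, known for the alpha-granules of platelets and Tmie, a gene of inner-ear hair cells. By the authors' deposited table Nbeal2 averaged 1.06 and 3.37 and Tmie 4.57 and 17.0. With 1 Mb added on each side there were 64 genes that are not members. Of these 3 were listed (4.69%, against 7.69% of all genes tested), 2 higher and 1 lower. The lower gene was Shisa5, a gene of the p53 pathway, which averaged 279.1 and 218.0 by the authors' deposited table.

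**Figure D4:**
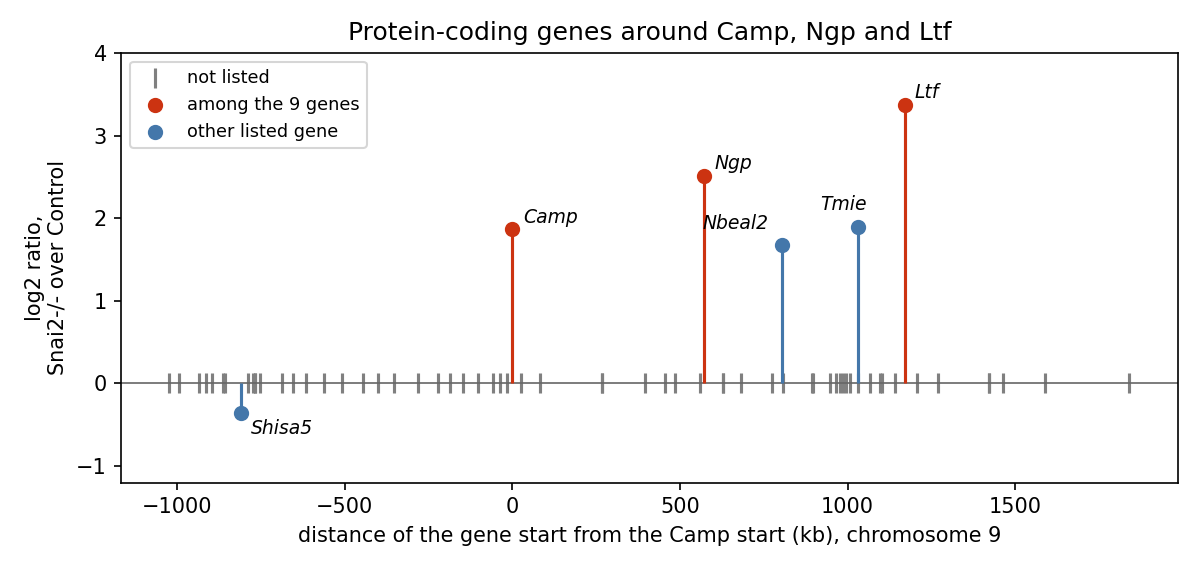
Log2 ratio of Snai2-/- over control for the listed protein-coding genes around Camp, Ngp and Ltf, by distance of the gene start from that of Camp in kb; grey ticks on the zero line are genes not listed. Red marks the 3 granule genes, blue marks Nbeal2, Tmie and Shisa5, and most genes of the region are ticks.

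The other 6 genes are spread over the genome. Lcn2 lies at chr2:32384633-32388252, Chil3 at chr3:106147554-106167564, S100a9 at chr3:90692632-90695721, Srgn at chr10:62493833-62527451 and Lrg1 at chr17:56119678-56122001, all on the minus strand. Ly6g lies at chr15:75155240-75159126 on the plus strand. A gap of 22.6 kb separates S100a9 from S100a8. All 9 are protein-coding, and no other GENCODE gene overlaps any of them. Of the 50-base words in the annotated transcripts of Chil3, 26.9% also occur in another gene, among them its paralog Chil4 and Gm6522, so its value is less certain. For Ly6g the share was 0.448%, and for the other 7 genes it was 0%.

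The listed genes whose pair of group means lay nearest to the median of the members (23.6 in control and 94.9 in Snai2-/- cells, distance on the log2 scale over the 2 group means) were Cntn1, Wnt4, Rmnd1, Cdh15 and Cadm1. The authors' deposited table gives ratios of 3.57 for Cntn1, 3.41 for Wnt4, 3.37 for Rmnd1, 5.47 for Cdh15 and 5.19 for Cadm1. Predicted gene models and Rik clones were left out of this search. Likeness over only 2 means is a coarse measure.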

How the data were processed

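The deposited table holds the authors' comparison of mutant (Snai2-/-) with wildtype (control) MSPCs, 1 row per gene. Per the file headers it gives a p-value, a step-up FDR, a ratio, a signed fold change (a score, not used) and a least-squares mean per group. Means and totals as deposited are a normalized signal of unstated unit: 0 of 1285 totals are whole, and each is 3 times the 2 means added. Per the submitters' processing notes, Trim Galore, HTSeq, edgeR 3.12.0 and mm10 were used. The sources used here do not give their roles, the aligner, the annotation or the model behind the p-values. Per the labels, SMART-Seq v4 and Nextera XT were used, which amplify by PCR and do not mark strand.

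Values per library, their spread and depth were not analysed here, so no error or interval stands beside any value and no model was fitted. If libraries of a group share an animal, the authors' p-values measure spread that is partly technical. The 16718 genes tested were recovered from FDR, rank and p, a step tested on simulated data. The members, gene lists and rule for named genes were chosen with earlier results of these data known. Named with values are the 9 members, Snai2, every listed gene of the lists except endothelial ones, and the 5 listed genes nearest to the median of the members. Predicted gene models and Rik clones could not be among those 5. The values of 1 listed gene are not reported here. Nbeal2, Tmie and Shisa5 were named after their values were seen. A comparison of the members' proteins was planned and not run. Promoter windows are from RefSeq (GRCm38.p6) and locations from GENCODE M21 (GRCm38, the assembly that mm10 denotes). Alternatives were other limits on p, FDR, mean and fold, pseudocounts, and a window of 200 bases. Python 3.11.15, numpy 2.4.6 and pandas 2.3.3 were used.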

Additional observations from a re-analysis of the deposited data

How the results depend on the processing

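Of the 9 members, 1 (Srgn) was left at p below 0.01, 0 at an FDR of 0.05, 0.1 or 0.2, 8 with a higher group mean of at least 1, and 9 with an absolute log2 ratio of at least 1. The 5 other granulocyte genes that were higher became 1 at p below 0.01, 0 at each FDR limit, 3 with the minimum mean and 4 with the fold limit. The 2 that were lower became 0 at p below 0.01, at each FDR limit and with the fold limit. The FDR limits could only leave 0 because the smallest FDR of these genes exceeds them. The median log2 ratio of the members, 2.52, became 2.36, 2.30 and 1.99 with pseudocounts of 0.5, 1 and 5 on the group means, 2.47 without Ly6g (the minimum mean), and 2.39 without Lcn2, Lrg1 and Srgn. At a pseudocount of 5 the log2 ratios of single members ran from 0.22 (Ly6g) to 2.76, and a pseudocount cannot change their sign. Without Ebf1, an alternative chosen after seeing the data, the log2 ratio of the summed means of other blood cell genes turned from -0.19 to 0.92. Most of the rise in that sum lies in Car1. Within 200 bases before the start, TTNNGNAA was found for 6 of 9 genes against 33.2% of all genes and CAGGTG for 2 of 9 against 15.8%. In that shorter window the NF-kB-type word fell from 3 of 9 (22.9% of all genes) to 1 of 9 (16.8%), from above to below the share of all genes. The STAT-type word was found for 1 of 9 (6.38%) and GAGGAA for 3 of 9 (21.3%).

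No paired analysis was possible because the file holds 1 mean per group. Fits without a library, with other normalizations or with count models were not run for the same reason. Whether 1 library sets the value of any gene was not tested. Depth per library is unknown.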
